A study of Homo sapiens with 12 samples.

Results

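The aminoacyl-tRNA synthetases and the tRNA exporter XPOT were followed in 3 lines of human multiple myeloma, a cancer of plasma cells, treated for 8 h with either PRIMA-1Met or DMSO. Members were chosen by gene symbol, older symbols such as AARS for AARS1 included, and number 35 of the 20046 gene symbols on the array: 18 genes of cytosolic enzymes, 16 of mitochondrial enzymes, and XPOT. PRIMA-1Met, also called APR-246, is a drug whose breakdown product binds thiol groups and which was developed to reactivate mutant p53; DMSO is its solvent. The treated groups were MM.1S at 20 µM, which the labels give as p53 wild type, U266 at 40 µM, given as p53 mutant, and 8226R5 at 40 µM, given as p53 null; each line had its own DMSO group. Each of the 6 groups had 2 Illumina HumanHT-12 arrays, 12 in all. Line, p53 status and, for MM.1S, dose go together in this design and cannot be told apart. The labels say that cells were seeded in duplicate, and do not say that the duplicates were independent cultures; the p-values rest on the spread between the 2 samples of each group, which may be technical only.

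An aminoacyl-tRNA synthetase joins an amino acid to its matching tRNA, the step that fixes the meaning of the genetic code. Cytosolic and mitochondrial protein synthesis mostly use separate enzymes, all encoded in the nucleus; the gene names end in 1 for most cytosolic and in 2 for most mitochondrial enzymes, while GARS1 and KARS1 supply both compartments. Phenylalanine is charged in the cytosol by an enzyme of separate α and β subunits, FARSA and FARSB, and EPRS1 joins the glutamate and proline activities in a single chain. XPOT (exportin-T) carries tRNA out of the nucleus. In amino acid shortage and ER stress the transcription factor ATF4 binds C/EBP-ATF elements near many amino acid genes, among them several cytosolic synthetase genes; plasma cells, which secrete antibody in bulk, have a large demand for charged tRNA.

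The C/EBP-ATF letters TGATGCAA were searched on both strands of the RefSeq promoter windows of GRCh38.p14, which run from 250 bases before to 50 bases after a start site. Windows were found for 30 of the 35 members; YARS1, AARS2, VARS1, LARS1 and VARS2 had none in the table. The letters occur in 5 of the 15 cytosolic genes with a window (AARS1, IARS1, MARS1, NARS1 and TARS1), in 0 of 14 mitochondrial genes and not in the XPOT window, against 1.08% of the 27305 genes in the table. The looser form TGATGNAA, which contains the exact form, added GARS1 among the cytosolic genes and YARS2 among the mitochondrial ones, against 4.46% of all genes. These stretches are shown because the genes that carry the letters include AARS1, the synthetase with the largest fall in U266, and because the exact letters were found in cytosolic genes and in 0 mitochondrial ones. They are written 5′ to 3′ on the strand of the gene, with the matching letters (forward or as the reverse complement, TTGCATCA for the exact form) in capitals.
AARS1, chr16:70289656-70289723, minus strand: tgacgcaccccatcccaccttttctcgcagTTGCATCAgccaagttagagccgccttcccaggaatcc
IARS1, chr9:92293698-92293740, minus strand: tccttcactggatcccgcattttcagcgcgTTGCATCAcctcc
MARS1, chr12:57488034-57488071, plus strand: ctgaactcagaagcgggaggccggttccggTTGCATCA
NARS1, chr18:57621804-57621833, minus strand: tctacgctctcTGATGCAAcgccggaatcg
TARS1, chr5:33440956-33440985, plus strand: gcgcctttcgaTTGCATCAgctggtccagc
GARS1, chr7:30594815-30594877, plus strand, looser form: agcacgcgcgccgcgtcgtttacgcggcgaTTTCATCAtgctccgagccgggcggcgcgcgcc
YARS2, chr12:32756057-32756124, minus strand, looser form: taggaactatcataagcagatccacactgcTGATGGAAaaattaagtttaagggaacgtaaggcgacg
The match begins 187 bases before the start in AARS1, 13 in IARS1 and 4 in MARS1, and lies past the start in NARS1 and TARS1. A match of letters is a description of the window and not a measured binding site. The CCAAT letters, a common promoter motif, occur in 6 of 15 cytosolic and 9 of 14 mitochondrial genes, against 39.7% of all genes.

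The values below are the authors' quantile-normalized log2 values. A probe counted as detected where its detection p-value was under 0.01, and 36 of the 40 member probes were detected on at least 2 arrays, which left 34 genes: all 18 cytosolic genes, 15 of 16 mitochondrial genes and XPOT. WARS2, the mitochondrial tryptophan enzyme, was detected on no array and is not described further. The treated MM.1S arrays were dim: the 90th percentile of their raw signal averaged 213.7 intensity units, against 812.4 in DMSO, compared with 535.3 against 905.3 in U266 and 867.2 against 700.9 in 8226R5. The SD of the difference between duplicates was 0.377 log2 units in treated MM.1S and 0.175 to 0.23 in the other groups, and the test pools 1 spread over all groups, so errors may be too small for MM.1S. Of 8 plasma cell markers, 8 were detected in MM.1S, 7 in U266 and 4 in 8226R5, where JCHAIN, TNFRSF17, IRF4 and CD38 were not. Of 11 markers of other cell types, between 2 and 6 were detected on an array, ALB on all 12. EPCAM was detected in 8226R5 alone, with means of 13.43 with PRIMA-1Met and 13.47 in DMSO, as was CD3E (7.46 and 7.53). HBB was detected in MM.1S alone (9.28 with PRIMA-1Met and 9.10 in DMSO). In bulk RNA, fewer cells of a kind and less RNA per cell cannot be told apart.

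XPOT and AARS1 carried the largest falls among the members in U266, and no synthetase passed the test in 8226R5, where XPOT was higher. XPOT (chromosome 12, 64404392 to 64451125, GRCh38.p14) had log2 values of 6.97 and 6.64 in PRIMA-1Met-treated U266, against 8.30 and 8.08 in DMSO. XPOT was detected on these treated arrays, but their lowest detected values were 6.5 and 6.61. Both treated arrays lay below both DMSO arrays. The difference was −1.38 ± 0.15 log2 units (SE, n = 2 arrays per group; limma, adjusted p = 0.000248). In 8226R5, treated at the same dose, XPOT had 7.57 and 7.81 with PRIMA-1Met, against 6.86 and 7.0 in DMSO. The lowest detected values of these DMSO arrays were 6.59 and 6.61. Here both treated arrays lay above both DMSO arrays, by 0.76 ± 0.15 (limma, adjusted p = 0.0143). This rise lost the threshold without 3 of the 4 arrays of the line, with limma adjusted p-values of 0.0975 without DMSO replicate 1, 0.0556 without DMSO replicate 2 and 0.112 without PRIMA-1Met replicate 2. In MM.1S XPOT had 6.29 and 6.01 with PRIMA-1Met, where it was not detected, against 7.56 and 7.51 in DMSO. The treated arrays were again the lower ones, and XPOT was at least 1.42-fold lower there (limma, adjusted p = 2e-05). Across the lines the responses of XPOT thus had different signs. The U266 response minus the 8226R5 response was −2.15 ± 0.21 (limma, adjusted p = 0.00024), a size that rests partly on values near the lowest detected ones. The MM.1S response minus the U266 response cannot be read, since XPOT lay at background in treated MM.1S.

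**Figure D1:**
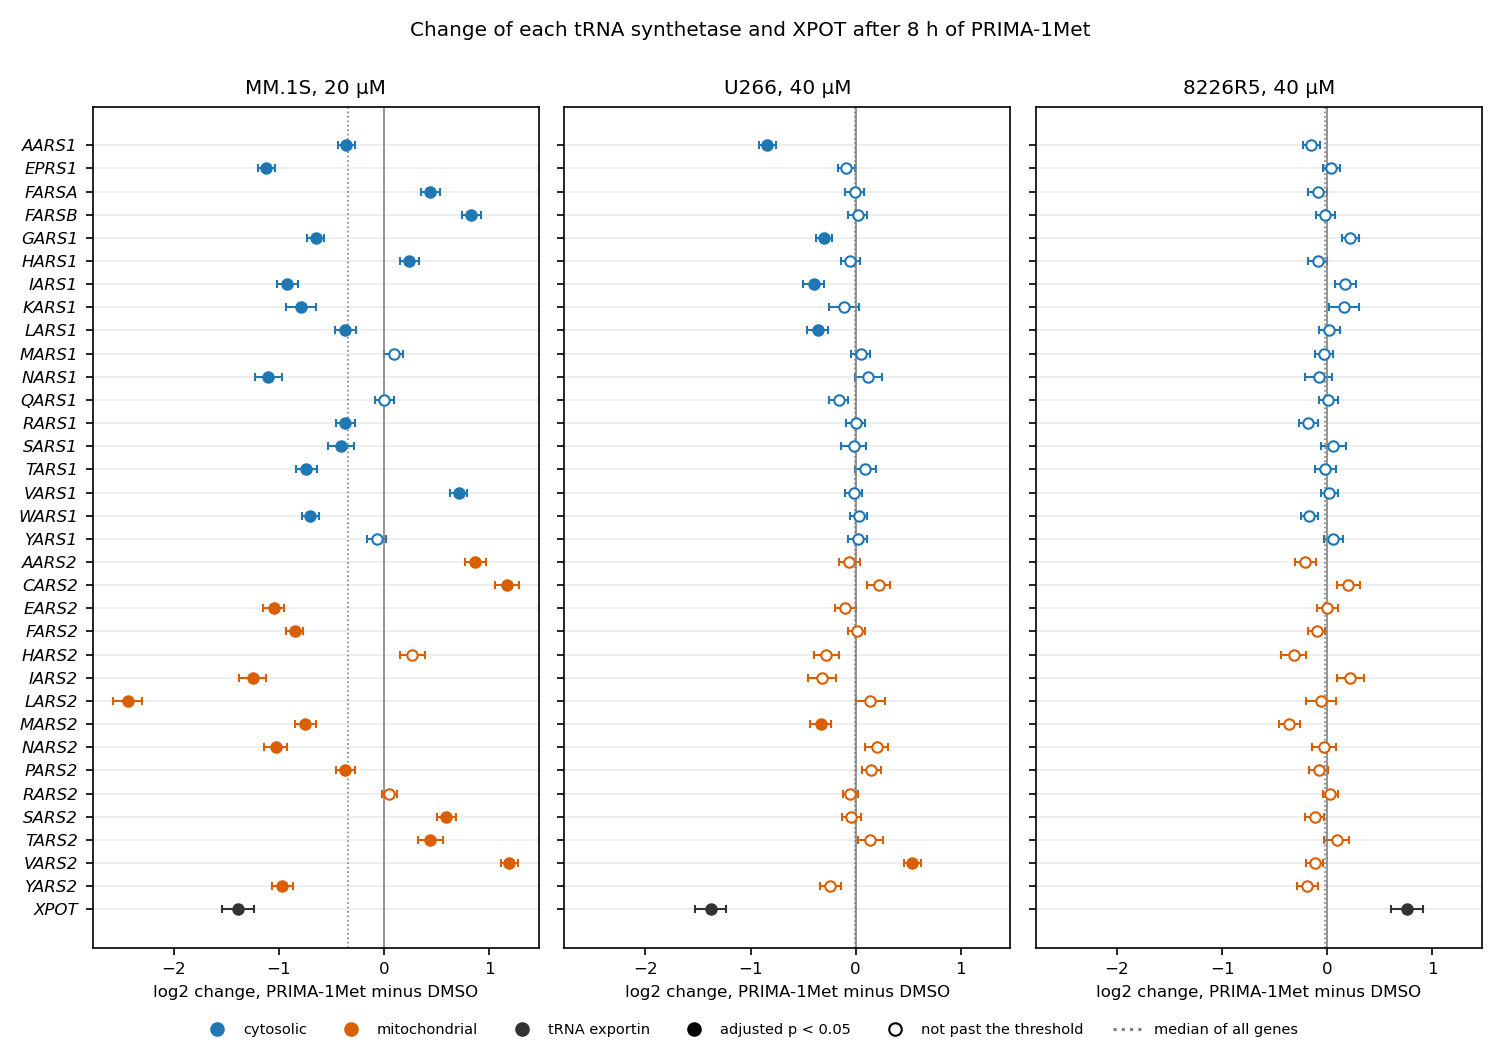
Log2 change of each measured member with PRIMA-1Met minus DMSO (x axis, log2 units; point and standard error, n = 2 arrays per group) in MM.1S, U266 and 8226R5, all panels on 1 scale; filled points passed an adjusted p of 0.05, and the dotted line is the median of all genes. In U266 the XPOT point lies at −1.38 and the AARS1 point at −0.84, in 8226R5 only XPOT is filled, and in MM.1S the points spread from −2.44 (LARS2) to 1.19 (VARS2); LARS2, PARS2 and XPOT were not detected in treated MM.1S, and their points there rest on values at background.

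Among all 11305 genes in U266, 26.5% passed the test, 12.1% upwards and 14.5% downwards. Of the 18 cytosolic synthetases in U266, 0 rose and 4 fell, and of the 15 mitochondrial ones 1 rose and 1 fell. The cytosolic median change was −0.02 and the mitochondrial one −0.04, beside −0.01 for all genes. AARS1, the cytosolic alanine enzyme, had 12.03 and 11.96 with PRIMA-1Met in U266, against 12.83 and 12.84 in DMSO. The groups lay well apart, and AARS1 fell by 0.84 ± 0.08 (limma, adjusted p = 0.000113), a fall kept under all 20 alternative settings (−1.14 to −0.57). The looser falls were those of the isoleucine enzyme IARS1 (−0.40 ± 0.10, adjusted p = 0.0209), the leucine enzyme LARS1 (−0.36 ± 0.10, 0.024) and the glycine enzyme GARS1 (−0.30 ± 0.08, 0.0211).

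For IARS1 the U266 values were 10.30 and 10.25 with PRIMA-1Met, against 10.82 and 10.53 in DMSO. LARS1 had 10.67 and 10.63 with PRIMA-1Met, against 10.94 and 11.07 in DMSO. GARS1 had 13.21 and 13.22 with PRIMA-1Met, against 13.45 and 13.58 in DMSO. None of these groups overlapped, but each call rested on single arrays: the limma adjusted p reached 0.143 for IARS1 without DMSO replicate 1, and 0.145 for LARS1 and 0.136 for GARS1 without DMSO replicate 2. VARS2, the mitochondrial valine enzyme, had 9.39 and 9.41 with PRIMA-1Met in U266, against 8.90 and 8.81 in DMSO. It was higher on both treated arrays, by 0.54 ± 0.08 (limma, adjusted p = 0.00111); under median scaling over all probes the difference was −0.03. MARS2, the mitochondrial methionine enzyme, had 7.43 and 7.21 with PRIMA-1Met, against 7.74 and 7.57 in DMSO. It fell by 0.33 ± 0.10 (limma, adjusted p = 0.0398), a call kept under 9 of 20 alternative settings and lost under 11. Without DMSO replicate 1 the change was −0.25. WARS1, the cytosolic tryptophan enzyme, changed by 0.03 ± 0.08 in U266 and LARS2, the mitochondrial leucine enzyme, by 0.14 ± 0.14; neither passed the test. Scaling moved the U266 split. Median scaling over all probes gave 0 up and 16 down among cytosolic and 0 up and 14 down among mitochondrial enzymes. All genes then had 3.41% up and 64.1% down. With scaling over the probes detected on every array the split was 3 up with 2 down, then 1 up with 1 down. All genes had 28.6% up and 15.1% down there.

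**Figure D2:**
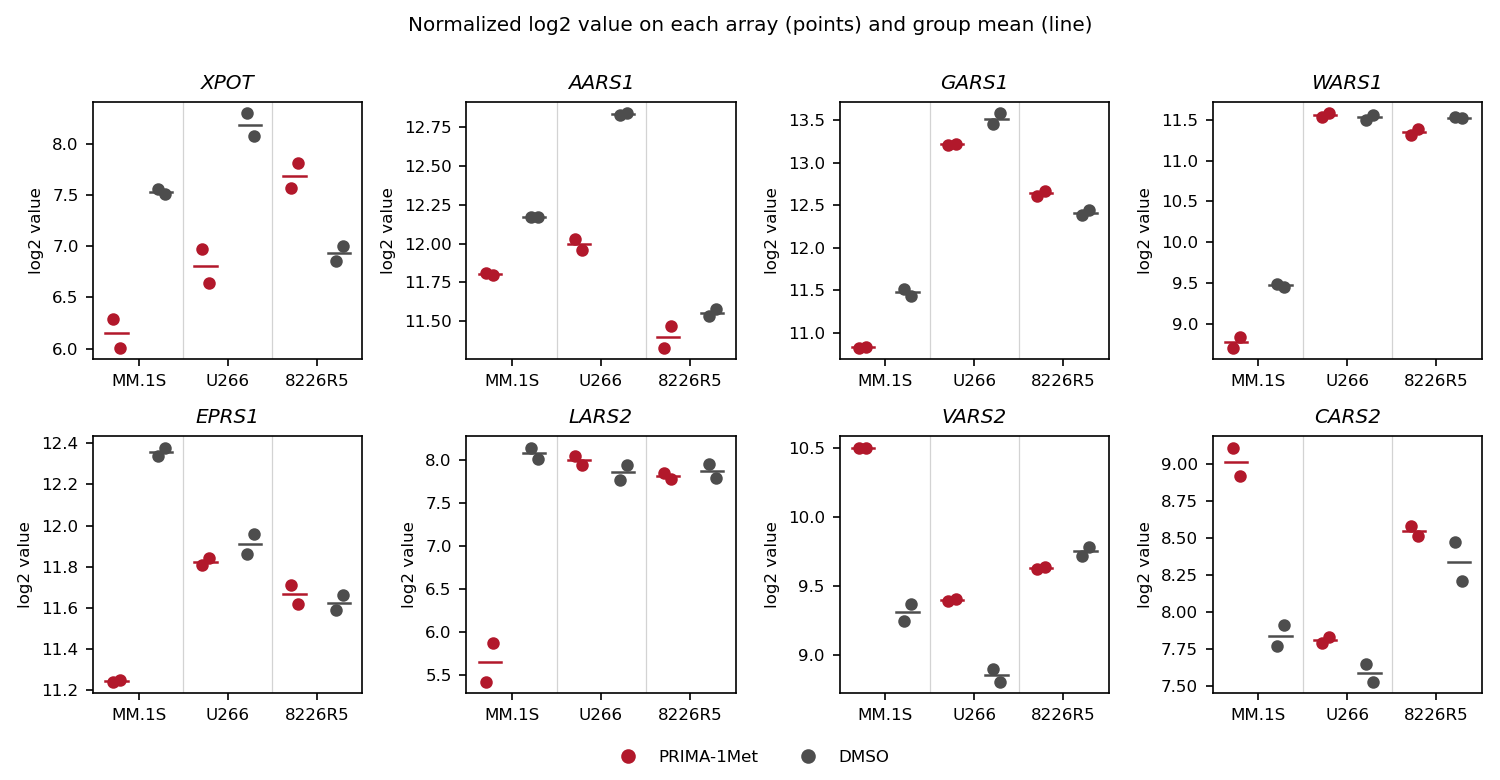
Normalized log2 value of 8 members on each array (y axis, log2 units; points are arrays, lines group means, n = 2) by cell line, PRIMA-1Met left of DMSO. XPOT is lower with PRIMA-1Met in MM.1S and U266 and higher in 8226R5, AARS1 lies near 12 in treated U266 against 12.8 in DMSO, and LARS2 in treated MM.1S sits at 5.42 and 5.87 against 8.15 and 8.02.

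In 8226R5, 9.17% of all genes passed the test (4.13% up and 5.04% down), and 0 of the 33 measured synthetases did, 18 cytosolic and 15 mitochondrial. Their changes ran from −0.36 to 0.22, with a cytosolic median of 0 and a mitochondrial median of −0.08, beside −0.02 for all genes. The nearest to the threshold were MARS2 at −0.36 ± 0.10 (limma, adjusted p = 0.061), GARS1 at 0.22 ± 0.08 (0.114) and the mitochondrial histidine enzyme HARS2 at −0.32 ± 0.12 (0.127). These 3 were also the only ones of the 33 with an unadjusted p under 0.05 in limma, and neqc called 0 as well. LARS1 changed by 0.02 ± 0.10, WARS1 by −0.17 ± 0.08 and LARS2 by −0.06 ± 0.14, none past the threshold. Median scaling over all probes called 7 cytosolic and 3 mitochondrial enzymes up in this line, where all genes had 25.8% up and 4.18% down. Scaling over the probes detected on all 12 arrays called 0 and 1 down, where all genes had 5.54% up and 12.6% down. Between the lines treated at the same dose, 18.9% of all genes differed in response (9.02% higher and 9.89% lower in U266). The U266 response minus the 8226R5 response was lower for AARS1 (−0.68 ± 0.11, limma adjusted p = 0.00304), IARS1 (−0.57 ± 0.15, 0.0257) and GARS1 (−0.52 ± 0.11, 0.0114), and higher for VARS2 (0.67 ± 0.11, 0.00338). AARS1, IARS1 and XPOT were called lower under all 4 scalings, while VARS2 turned to −0.14 under median scaling over all probes, and GARS1 was at −0.14 with scaling over the probes detected on all 12 arrays. The other 29 synthetases did not pass, LARS1 among them (−0.37 ± 0.14, adjusted p = 0.0853).

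In MM.1S most of the family passed the test, as did most genes: 74.3% of all genes were called, 24.1% up and 50.3% down, with a median change of −0.34. Of 18 cytosolic enzymes 4 rose, 11 fell and 3 did not pass, and of 15 mitochondrial enzymes 5 rose, 8 fell and 2 did not pass. The shares in both directions were near those of all genes, and both compartments had a median of −0.37. The split moved with scaling. Median scaling over all probes set the median of all genes to −1.40, with 7.62% of them up and 74.7% down. It gave 1 up and 17 down among cytosolic and 0 up and 15 down among mitochondrial enzymes. Scaling over the probes detected on all 12 arrays had a median of 0.36, with 51.7% of all genes up and 31% down. It gave 5 up with 8 down and 7 up with 7 down. Called in the same direction under all 4 scalings were 1 cytosolic rise (FARSB) and 8 cytosolic falls (EPRS1, GARS1, IARS1, KARS1, LARS1, NARS1, TARS1 and WARS1). Among mitochondrial enzymes there were 0 such rises and 7 such falls (EARS2, FARS2, IARS2, LARS2, MARS2, NARS2 and YARS2). The share of all genes called in the same direction under all 4 scalings was not counted. These counts therefore do not set the family apart. Relative to the median of all genes, 5 cytosolic enzymes (FARSA, FARSB, HARS1, QARS1 and VARS1) lay above it under all 4 scalings. So did 5 mitochondrial ones (AARS2, CARS2, SARS2, TARS2 and VARS2), while 11 cytosolic and 7 mitochondrial enzymes lay below it. These are fewer than 4 separate checks. The 2 median scalings shift all genes of an array alike and must give the same position, and neqc, like the deposited values, is quantile normalized.

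LARS2 (chromosome 3, 45388576 to 45549407) fell to background in MM.1S, so its fall has only a bound and no rank among the others. It had values of 5.42 and 5.87 in PRIMA-1Met-treated MM.1S, where it was not detected, against 8.15 and 8.02 in DMSO. The groups did not overlap, and LARS2 was at least 2.08-fold lower (limma, adjusted p = 4.62e-07). IARS2, the mitochondrial isoleucine enzyme, had 9.71 and 9.98 with PRIMA-1Met, against 11.12 and 11.07 in DMSO. It fell by 1.25 ± 0.13 (limma, adjusted p = 1.99e-05). EARS2, the mitochondrial glutamate enzyme, had 8.44 and 8.21 with PRIMA-1Met, against 9.46 and 9.28 in DMSO, again without overlap. It fell by 1.05 ± 0.10 (limma, adjusted p = 8.13e-06). The other mitochondrial falls were NARS2 (−1.03), YARS2 (−0.97), FARS2 (−0.85), MARS2 (−0.75) and PARS2 (−0.37), the enzymes for asparagine, tyrosine, phenylalanine, methionine and proline. PARS2 was not detected on the treated arrays, so its change is not a fold, and the sign turned to 0.71 under scaling over the probes detected on all 12 arrays.

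Among cytosolic enzymes in MM.1S, EPRS1 had 11.24 and 11.25 with PRIMA-1Met, against 12.34 and 12.38 in DMSO. The duplicates lay close together and the groups far apart, a fall of 1.12 ± 0.08 (limma, adjusted p = 1.2e-06). The asparagine enzyme NARS1 had 10.37 and 10.34 with PRIMA-1Met, against 11.44 and 11.48 in DMSO. It fell by 1.10 ± 0.13 (limma, adjusted p = 3.57e-05). IARS1 had 9.29 and 9.31 with PRIMA-1Met, against 10.17 and 10.27 in DMSO. It fell by 0.92 ± 0.10 (limma, adjusted p = 2.82e-05). The remaining cytosolic falls were KARS1 (−0.79), TARS1 (−0.74), WARS1 (−0.70), GARS1 (−0.65), SARS1 (−0.41), LARS1 (−0.37), RARS1 (−0.37) and AARS1 (−0.36), the enzymes for lysine, threonine, tryptophan, glycine, serine, leucine, arginine and alanine. WARS1 had 8.71 and 8.84 with PRIMA-1Met, against 9.49 and 9.45 in DMSO. LARS1 had 9.93 and 9.79 with PRIMA-1Met, against 10.23 on both DMSO arrays. Both fell beyond the spread of the duplicates (limma, adjusted p = 2.96e-05 and 0.00584). The second WARS1 probe was lower by 1.46 ± 0.16, with 6.91 and 7.40 with PRIMA-1Met, against 8.51 and 8.72 in DMSO. It was detected on 11 of 12 arrays. Its 6.91 lies below the lowest detected value of that array (7.06), so the size rests partly on background. SARS1 lost the threshold without DMSO replicate 2 (limma, adjusted p = 0.103), and AARS1 turned to 0.05 under scaling over the probes detected on all 12 arrays. Methionine, glutamine and tyrosine enzymes MARS1 (0.09 ± 0.09), QARS1 (0.00 ± 0.09) and YARS1 (−0.07 ± 0.09) did not pass the test.

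The rises in MM.1S included both valine enzymes. VARS2 (chromosome 6, 30914238 to 30926459) had 10.50 on both PRIMA-1Met arrays, against 9.25 and 9.37 in DMSO. It was higher by 1.19 ± 0.08 (limma, adjusted p = 8.12e-07). The mitochondrial cysteine enzyme CARS2 had 9.11 and 8.92 with PRIMA-1Met, against 7.77 and 7.91 in DMSO, and was higher by 1.17 ± 0.11 (limma, adjusted p = 1e-05). The mitochondrial alanine enzyme AARS2 had 10.35 and 10.22 with PRIMA-1Met, against 9.40 and 9.44 in DMSO, and was higher by 0.87 ± 0.10 (limma, adjusted p = 4.46e-05). These 3 groups of arrays did not overlap with their DMSO arrays, but all 3 changes were negative under median scaling over all probes (−0.39, −0.32 and −0.75), where the median of all genes was lower still. Among cytosolic enzymes VARS1 had 12.62 and 12.61 with PRIMA-1Met, against 11.87 and 11.93 in DMSO, and was higher by 0.71 ± 0.08 (limma, adjusted p = 2.85e-05). FARSA had 9.55 and 9.60 with PRIMA-1Met, against 9.12 and 9.16 in DMSO, and was higher by 0.44 ± 0.09 (limma, adjusted p = 0.00201). VARS1 and FARSA were at −0.41 and −1.22 under median scaling over all probes.

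FARSB is measured with doubt. Its brightest probe ranked between 18 and 190 among the probes of an array and had 15.70 and 15.68 with PRIMA-1Met in MM.1S, against 14.96 and 14.76 in DMSO, a rise of 0.83 ± 0.09 (limma, adjusted p = 2.29e-05). Its other probe was not detected in MM.1S or U266, and had 7.12 and 7.14 with PRIMA-1Met in 8226R5, against 6.71 and 6.87 in DMSO (0.34 ± 0.10, limma adjusted p = 0.0661), where the brightest probe changed by −0.02 ± 0.09. The 2 probes therefore disagree, and whether the brightest one reads FARSB alone was not tested. The smallest rises were those of SARS2 (0.59), TARS2 (0.44) and HARS1 (0.24), the mitochondrial serine, mitochondrial threonine and cytosolic histidine enzymes. TARS2 and HARS1 lost the threshold without DMSO replicate 2 (limma, adjusted p = 0.0544 and 0.243), and all 3 were negative under median scaling over all probes. HARS2 (0.27 ± 0.12, limma adjusted p = 0.0601) and the mitochondrial arginine enzyme RARS2 (0.05 ± 0.07) did not pass.

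**Figure D3:**
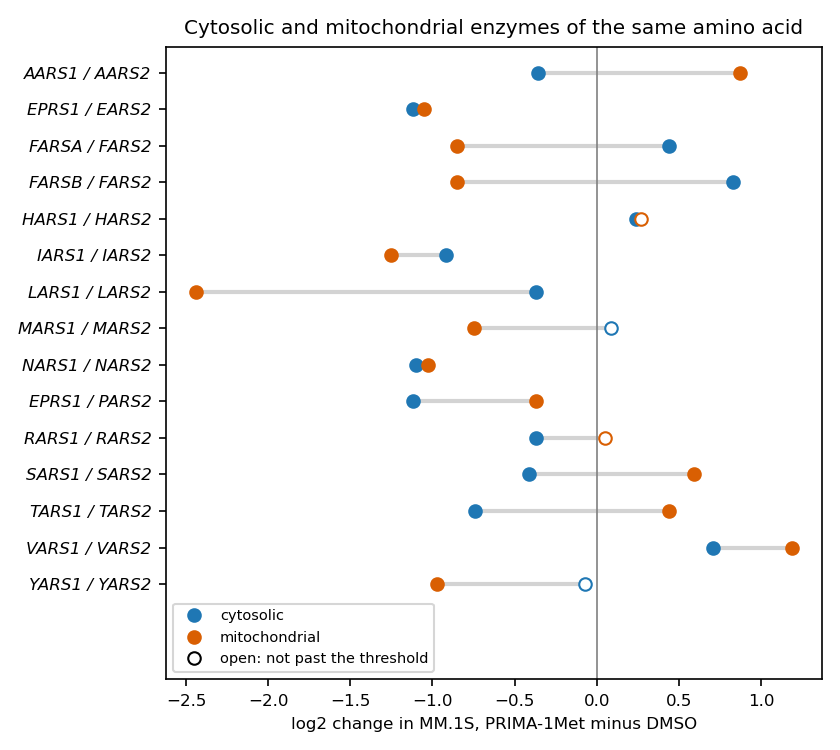
Log2 change in MM.1S, PRIMA-1Met minus DMSO (x axis, log2 units), of the cytosolic and the mitochondrial enzyme of each amino acid, 1 row per pair (n = 2 arrays per group; filled points passed an adjusted p of 0.05). Alanine, serine and threonine enzymes and the phenylalanine subunits lie on opposite sides of 0 in the deposited values (under median scaling over all probes only FARSB and FARS2 do, of the 11 pairs called), and the valine, isoleucine and asparagine enzymes on the same side; LARS2 (−2.44) and PARS2 (−0.37) were not detected on the treated arrays, and their points there rest on values at background.

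The median responses of the cytosolic and mitochondrial enzymes lay close together in each line, with no test of the difference. The cytosolic median change minus the mitochondrial one was 0.00 in MM.1S, 0.02 in U266 and 0.08 in 8226R5, and on the treated MM.1S arrays taken singly it was −0.06 and 0.07. In MM.1S the value ranged from −0.42 to 0.13 across the other processing settings, so neither compartment was the higher one throughout. Matching the enzymes of an amino acid gives 15 pairs, in which EPRS1 and FARS2 each stand in 2. In MM.1S both enzymes were called in 11 pairs, in the same direction in 6 (glutamate, isoleucine, leucine, asparagine and proline down, valine up) and in opposite directions in 5 (alanine, serine, threonine and both phenylalanine subunits). The direction of the proline pair cannot be read, since PARS2 lay at background on the treated arrays. The opposite directions depended on scaling. Of the 11 pairs, 5 had opposite signs in the deposited values and with neqc. With median scaling over all probes 1 did (FARSB against FARS2, which rests on the doubtful FARSB probe). With scaling over the probes detected on all 12 arrays 5 did, but not the same 5. AARS1 against AARS2 left, and EPRS1 against PARS2 entered, where PARS2 lay at background. FARS2 was lower by 0.85 while FARSA was higher by 0.44, and AARS2 was higher by 0.87 while AARS1 was lower by 0.36. The alanine enzymes had the same sign under each median scaling (AARS2 at −0.75 and AARS1 at −1.71, then 1.01 and 0.05). In U266 no pair had both enzymes called and 5 had 1, and in 8226R5 all 15 pairs had neither.

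Of the 7 synthetases of the cytosolic multisynthetase complex, a particle that holds several of these enzymes together, 0 rose and 5 fell in MM.1S (EPRS1, IARS1, KARS1, LARS1 and RARS1), against 4 up and 6 down among the 11 cytosolic genes outside it. Their medians were −0.37 and −0.36. All genes had 24.1% up and 50.3% down, and under all 4 scalings the rises outside the complex came to 1 (FARSB). In U266, where 12.1% of all genes were up and 14.5% down, the complex had 0 up and 2 down, and in 8226R5 0 of 7 were called. The 3 scaffold proteins of the complex had 0 genes among those measured. Of the 5 cytosolic genes with TGATGCAA in the window, 0 rose and 4 fell in MM.1S and 0 rose and 2 fell in U266 (AARS1 and IARS1), beside 4 up and 7 down, and 0 up and 2 down, among the other 13. In 8226R5 0 of 5 were called. Carriers of the letters thus ran from −1.10 (NARS1) to 0.09 (MARS1) in MM.1S and from −0.84 (AARS1) to 0.12 (NARS1) in U266.

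The response differed between the lines, by the moderated F test, for 26 of 34 members (12 of 18 cytosolic, 13 of 15 mitochondrial, and XPOT), against 70.4% of all genes. The smallest limma adjusted p-values were those of LARS2 (8.83e-06), VARS2 (2.25e-05), XPOT (2.42e-05), EPRS1 (2.66e-05), NARS2 (0.000184) and FARS2 (2e-04). LARS2, PARS2 and XPOT lay at background in treated MM.1S, so their F tests rest partly on such values and give them no rank. LARS2 and PARS2 also stand among the lower mitochondrial enzymes of the MM.1S minus U266 comparison below. NARS2 had 7.71 and 7.60 with PRIMA-1Met in MM.1S, against 8.74 and 8.62 in DMSO, and 8.36 and 8.19 with PRIMA-1Met in U266, against 8.03 and 8.12 in DMSO. FARS2 had 8.41 and 8.46 with PRIMA-1Met in MM.1S, against 9.26 and 9.30 in DMSO, and 9.41 and 9.34 with PRIMA-1Met in U266, against 9.41 and 9.31 in DMSO. Both were lower with PRIMA-1Met in MM.1S and did not pass the test in U266. The MM.1S response minus the U266 response was past the threshold for 62.7% of all genes (21.5% higher and 41.1% lower in MM.1S) and for 12 of 18 cytosolic (4 higher, 8 lower) and 13 of 15 mitochondrial enzymes (5 higher, 8 lower). Called in the same direction under all 4 scalings were 1 higher cytosolic enzyme (FARSB) and 8 lower ones, and 0 higher and 6 lower mitochondrial enzymes. For AARS1 the MM.1S response lay above the U266 response by 0.48 ± 0.11 (limma, adjusted p = 0.00421), but the difference was −0.56 under median scaling over all probes. The MM.1S response minus the 8226R5 response passed for 65.5% of all genes (22.8% higher and 42.7% lower), and for 13 cytosolic (4 higher, 9 lower) and 12 mitochondrial enzymes (5 higher, 7 lower); under all 4 scalings 1 cytosolic enzyme was higher and 7 lower, and 0 mitochondrial enzymes were higher and 6 lower. In the mean response over the 3 lines, 62.4% of all genes passed (19.9% up and 42.5% down), with 2 cytosolic enzymes up and 10 down, and 5 mitochondrial enzymes up and 7 down. Under all 4 scalings these counts were 1 up and 8 down, and 0 up and 7 down. For none of these comparisons was the share of all genes under all 4 scalings counted.

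In the DMSO groups at 8 h, called untreated below, the cytosolic and mitochondrial counts ran in opposite directions in both comparisons with U266. They did not between MM.1S and 8226R5, and the difference between the compartments was not itself tested. In DMSO, MM.1S minus U266 was past the threshold for 62% of all genes (31.1% higher and 30.9% lower in MM.1S). Of the 18 cytosolic enzymes 1 was higher in MM.1S and 13 lower, while of the 15 mitochondrial enzymes 6 were higher and 0 lower. The medians were −0.71 and 0.25, beside 0.02 for all genes, so the cytosolic minus the mitochondrial median was −0.96. Under all 4 scalings 1 cytosolic enzyme was higher and 12 lower, and 6 mitochondrial enzymes were higher and 0 lower. The matching share of all genes was not counted. All 5 carriers of TGATGCAA were among the lower ones (−1.56 to −0.45), as were 8 of the other 13 cytosolic genes. The other comparisons of untreated lines were mixed. In MM.1S minus 8226R5, 1 carrier was higher and 3 lower, beside 5 and 7 of the others. In U266 minus 8226R5, 3 carriers were higher and 1 lower, beside 8 and 2.

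WARS1 had 9.49 and 9.45 in DMSO-treated MM.1S, against 11.50 and 11.56 in DMSO-treated U266. GARS1 had 11.52 and 11.44 in MM.1S, against 13.45 and 13.58 in U266. Both lay about 2 log2 units lower in MM.1S (−2.06 ± 0.08 and −2.03 ± 0.08; limma, adjusted p = 2.84e-08 and 2.93e-08). YARS1 (−1.68), MARS1 (−1.56) and SARS1 (−1.03) followed, and the exception was EPRS1, higher in MM.1S by 0.45 ± 0.08 (limma, adjusted p = 0.000739). On the mitochondrial side AARS2 had 9.40 and 9.44 in MM.1S, against 7.83 and 7.58 in U266. It was higher by 1.72 ± 0.10 (limma, adjusted p = 6.32e-07). MARS2 (1.14), SARS2 (1.02), YARS2 (0.81), NARS2 (0.61) and VARS2 (0.46) were also higher in MM.1S. In 5 of the 15 pairs, those of alanine, methionine, asparagine, serine and tyrosine, the cytosolic enzyme was lower and the mitochondrial one higher in MM.1S than in U266, with MARS1 at −1.56 and MARS2 at 1.14, for example. XPOT was lower in MM.1S by 0.66 ± 0.15 (limma, adjusted p = 0.00379).

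**Figure D4:**
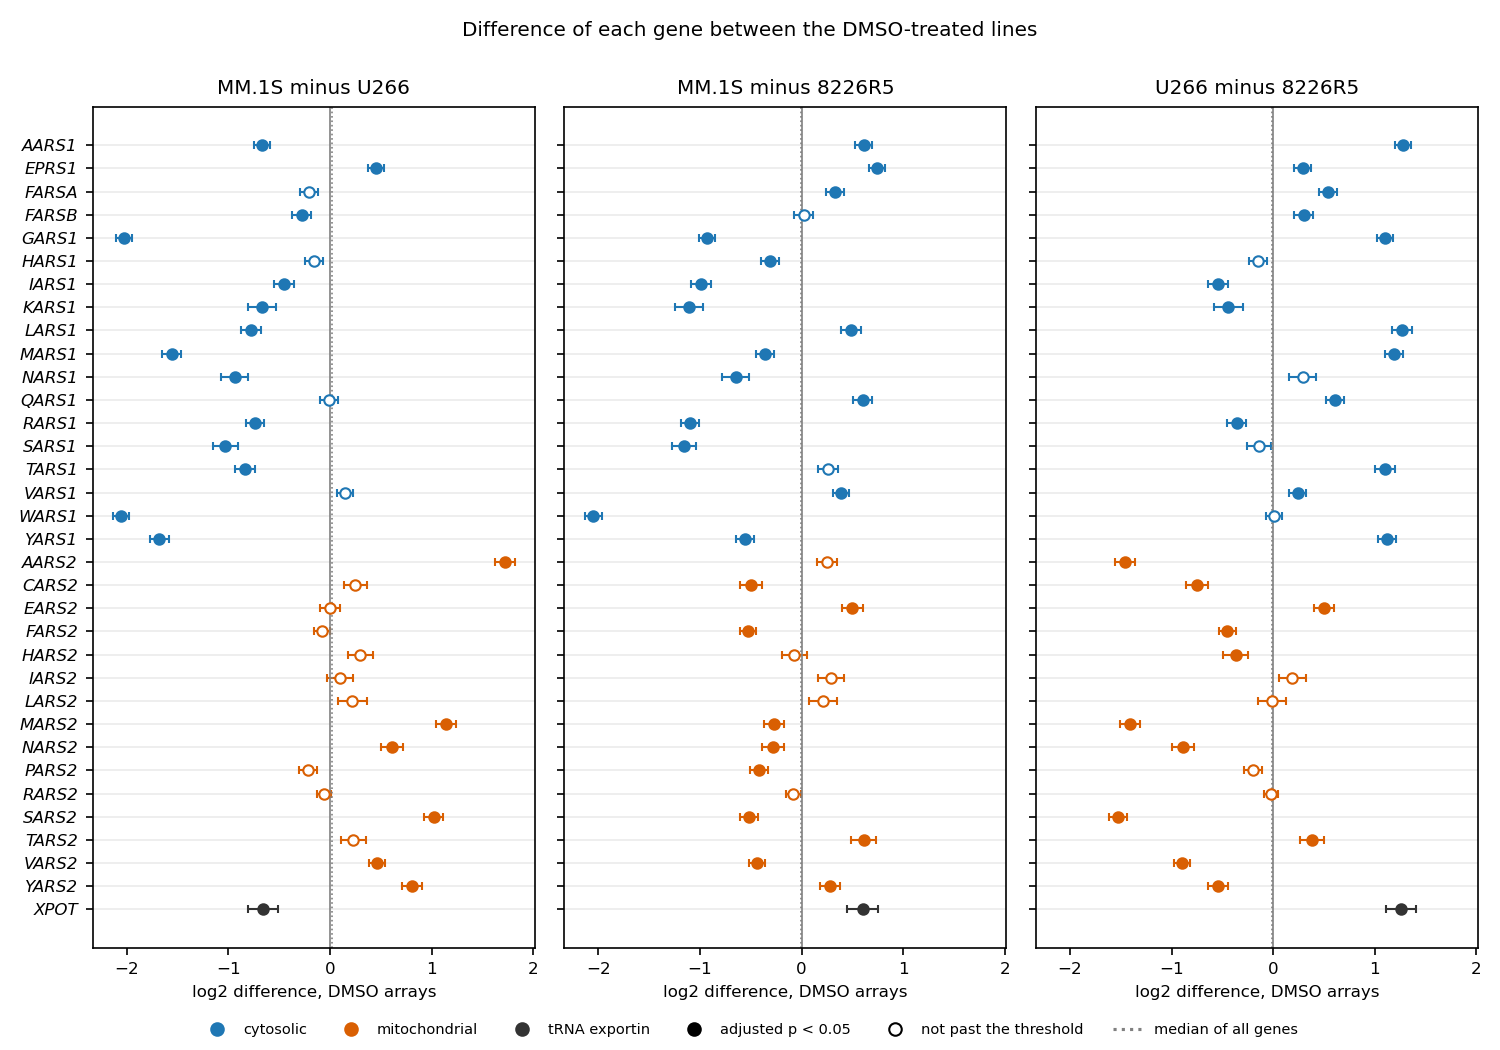
Log2 difference of each member between DMSO-treated lines (x axis, log2 units; point and standard error, n = 2 arrays per group): MM.1S minus U266, MM.1S minus 8226R5 and U266 minus 8226R5, all panels on 1 scale; filled points passed an adjusted p of 0.05. In the first panel cytosolic enzymes lie mostly left of 0 (WARS1 at −2.06) and called mitochondrial enzymes right of it (AARS2 at 1.72), and in the third panel the sides are largely exchanged.

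Untreated U266 minus untreated 8226R5 was past the threshold for 68.3% of all genes (33.9% higher and 34.5% lower in U266). Here 11 cytosolic enzymes were higher in U266 and 3 lower, and 2 mitochondrial enzymes were higher and 9 lower, with medians of 0.29 and −0.45. The largest were AARS1 (1.28), LARS1 (1.27), MARS1 (1.19) and YARS1 (1.12) on the higher side, and SARS2 (−1.53), AARS2 (−1.46) and MARS2 (−1.41) on the lower side. XPOT was higher in U266 by 1.26 ± 0.15 (limma, adjusted p = 4.39e-05). Over all 34 members 14 were higher and 12 lower, a split that became 15 and 10 with median scaling over all probes and 11 and 13 with scaling over the probes detected on all 12 arrays. Untreated MM.1S minus untreated 8226R5 was past the threshold for 65.7% of all genes (32.4% higher and 33.3% lower in MM.1S). Of the cytosolic enzymes 6 were higher in MM.1S and 10 lower, and of the mitochondrial ones 3 were higher and 7 lower. The medians were −0.34 and −0.08. WARS1 stood lowest, at −2.05 ± 0.08, so that both other lines were near each other and above MM.1S for this gene (U266 minus 8226R5, 0.01 ± 0.08, adjusted p = 0.925). Over all members 10 were higher in MM.1S and 17 lower, and with median scaling over all probes 14 and 15. These comparisons share their DMSO arrays with each other and with the responses above. XPOT ordered the untreated lines as U266 (mean 8.19), MM.1S (7.53) and 8226R5 (6.93), with all 3 differences past the threshold. After PRIMA-1Met the order was 8226R5 (7.69), U266 (6.81) and MM.1S (6.15, not detected).

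Genes that work beside the synthetases were counted in the same way, to be read against the 24.1% up and 50.3% down of all genes in MM.1S, 12.1% and 14.5% in U266, and 4.13% and 5.04% in 8226R5. Of 29 measured ATF4 and amino acid response genes, 8 rose and 11 fell in MM.1S (JDP2 and VLDLR, called but not detected in either group, left out), 12 rose and 4 fell in U266, and 4 rose and 0 fell in 8226R5. The largest changes were those of DDIT4 (3.40) and DDIT3 (2.61) in MM.1S, DDIT4 (1.29) and DDIT3 (1.18) in U266, and ATF3 (0.75) and ATF4 (0.48) in 8226R5; DDIT3 encodes the stress factor CHOP and DDIT4 an inhibitor of mTORC1 signalling. In untreated MM.1S minus untreated U266, 3 of these 29 genes were higher and 22 lower, against 31.1% higher and 30.9% lower of all genes. Their median was −0.84, beside 0.02 for all genes. The 29 include VLDLR, STC2, CBS, CTH, SESN2 and JDP2, which were not detected in MM.1S and lay at background there. Of 8 cytosolic elongation and release factors 1 rose and 7 fell in MM.1S, led by EEF1D (1.32) and EEF1G (−1.23), both subunits of the exchange factor of the elongation factor that brings charged tRNA to the ribosome. EEF1G was −0.36 in U266 and 0.60 in 8226R5. Of 17 measured tRNA processing genes 5 rose and 7 fell in MM.1S and 5 rose and 1 fell in U266, with TRMT1, a tRNA methyltransferase, at 2.55 and 0.54. POP7, a subunit of RNase P, was higher by 0.62 in U266, and RPP40, another subunit, lower by 0.47 in 8226R5.

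On the mitochondrial side, 17 of 76 ribosomal protein genes rose and 42 fell in MM.1S, 10 rose and 8 fell in U266, and 2 rose and 3 fell in 8226R5, beside a median change of −0.31 in MM.1S against −0.34 for all genes. MRPL57 (2.84) and MRPS35 (−1.39) led in MM.1S, MRPL55 (0.58) and MRPL18 (0.52) in U266, and MRPL52 (0.85) and MRPL49 (0.45) in 8226R5. Of 9 measured mitochondrial translation factors 1 rose and 4 fell in MM.1S, and 0 were called in U266 and 8226R5. GFM1, a mitochondrial elongation factor, fell by 1.10, and the release factor MTRF1 was lower but not detected on the treated arrays. Of 3 measured genes for amidation and formylation of mitochondrial tRNA, MTFMT (−1.05) and GATB (−0.85) fell in MM.1S and 0 were called in the other lines. In the same arrays 7 of 8 plasma cell markers fell in MM.1S, 5 in U266 and 2 in 8226R5, and the summed log2 value of those 8 was 92 on both treated MM.1S arrays against 100 and 100.3 in DMSO. Of 8 measured markers of other cell types 2 rose in MM.1S (ALB at 4.79 and CD14), 3 in U266 and 2 in 8226R5. Their part in the changes of the synthetases was not tested.

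The synthetase genes with longer spans on the genome tended to lower changes in MM.1S. The Spearman correlation of gene span with the change was −0.36 over 33 synthetases and −0.29 over 11296 genes. FARS2, LARS2 and NARS2, with spans of 522, 161 and 139 kb, changed by −0.85, −2.44 (at background with PRIMA-1Met) and −1.03, and VARS2 and AARS2, with 12.2 and 14.6 kb, by 1.19 and 0.87. CARS2 (72.1 kb, 1.17) and YARS2 (9.35 kb, −0.97) ran the other way. The same correlation was 0.11 in U266 and 0.44 in 8226R5, beside −0.08 and 0.05 over all genes. The genes share the same arrays and are not independent replicates.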

How the data were processed

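Total RNA from 12 samples in 6 groups was measured on Illumina HumanHT-12 arrays. The main values are on the log2 scale, quantile normalized by the authors and deposited as the series' value table. A deposited second table holds, per the file headers, each probe's signal in intensity units, not normalized between arrays, and a detection p-value; in it 9 arrays were displaced by 1 position from probe 22924 on and were realigned, after which the Spearman correlation with the log2 values was 1 on all 12 arrays. Per the submitters' processing notes, the upstream tools were BeadStudio, lumi and limma. A genome build for the probes was not given in the sources used here.

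Of 47321 probes, 19357 with a detection p-value under 0.01 on at least 2 arrays were kept; 4529 of these had no gene name. Each of 11305 genes is represented by its brightest probe. A model with 1 mean per group was fitted with limma 3.58.1 in R 4.3.3 (eBayes, two-sided, 6 residual degrees of freedom, Benjamini-Hochberg adjustment over all kept probes per comparison, threshold 0.05; a moderated F test for differences in response between lines). The code was tested on simulated data. Errors are standard errors, and the number of arrays limits the precision. A bounded fold sets undetected arrays to the lowest detected value or their own, whichever is higher. Alternatives were background correction with neqc (offset 16), 2 median scalings, 2 other filters, the mean of all probes of a gene, fewer arrays in the fit, a replicate block and leaving out each array. Same-numbered arrays did not deviate together over all kept probes (correlations 0.02, 0 and 0.01), and the main fit does not pair them. With 2 arrays per group these correlations cannot exclude pairing.

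Members, gene lists and rules were chosen with earlier results of these data known. Named members are the 3 largest rises and falls per line and compartment, the 6 with the smallest F-test p-values, XPOT, WARS1, LARS1 and LARS2, and for other lists up to 2 genes per line; POP7, JDP2, VLDLR and EEF1G in other lines, and the gene span examples were chosen after their values were seen. Promoter sequences, gene positions and spans come from RefSeq (GRCh38.p14).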

Additional observations from a re-analysis of the deposited data

Results flagged for a closer look

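A difference in response between the 3 lines, by limma's moderated F test, was found for 26 members. The adjusted p-values among cytosolic enzymes were 2.66e-05 for EPRS1, 0.000278 for GARS1, 0.00039 for FARSB, 0.000415 for IARS1, 0.000485 for VARS1, 0.000493 for NARS1 and 0.000799 for WARS1. They were 0.00106 for AARS1, 0.00146 for TARS1, 0.00423 for KARS1, 0.0114 for FARSA and 0.0429 for LARS1. Among mitochondrial enzymes they were 8.83e-06 for LARS2, 2.25e-05 for VARS2, 0.000184 for NARS2, 2e-04 for FARS2, 0.000204 for EARS2, 0.000286 for AARS2, 0.000292 for IARS2 and 0.000644 for CARS2. They were 0.00114 for SARS2, 0.00156 for YARS2, 0.0166 for HARS2, 0.0173 for PARS2 and 0.0439 for MARS2. For XPOT the value was 2.42e-05. Of these, XPOT was lower with PRIMA-1Met in MM.1S and U266 and higher in 8226R5, and AARS1 fell more in U266 (−0.84) than in MM.1S (−0.36), by the test of the difference between these responses (limma, 0.48 ± 0.11, adjusted p = 0.00421); under median scaling over all probes that order turned round (−1.14 in U266, −1.71 in MM.1S, difference −0.56). With 70.4% of all genes past the same test, these calls do not set the family apart. Those of LARS2, PARS2 and XPOT rest partly on values at background in treated MM.1S. No group had enough arrays for a test of single outlying arrays.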

How the results depend on the processing

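Of the single-gene values, 298 kept direction and call under the other settings and 472 when an array was left out; 15 and 28 lost the threshold. Median scaling over all probes turned FARSA (−1.22), HARS1 (−1.22), VARS1 (−0.41), AARS2 (−0.75), CARS2 (−0.32), SARS2 (−0.94), TARS2 (−1.09) and VARS2 (−0.39) in MM.1S, and WARS1 (−0.40), LARS2 (−0.46) and VARS2 (−0.03) in U266. Scaling over probes detected on all 12 arrays turned AARS1 (0.05) and PARS2 (0.71) in MM.1S and GARS1 (0.08) in U266. The cause was not tested; the median of all probes is that of an undetected probe. In U266 the called cytosolic and mitochondrial enzymes numbered 16 and 14 with median scaling over all probes, where 3.41% of all genes rose and 64.1% fell. They numbered 1 and 1 without a filter, and 2 and 1 with the arrays compared alone. With probes detected on all 12 arrays 5 mitochondrial ones were called. In 8226R5 the called enzymes numbered 7 and 3 with median scaling over all probes, where 25.8% of all genes rose and 4.18% fell. With probes detected on all 12 arrays they numbered 1 and 2, and scaling over those called 1 mitochondrial enzyme. Leaving out an array gave 1 to 4 cytosolic and 1 to 2 mitochondrial calls in U266, and 0 to 1 mitochondrial calls in 8226R5. The cytosolic minus mitochondrial median in MM.1S was 0.13 with neqc, −0.29 with each median scaling and −0.42 with probes detected on all 12 arrays (−0.08 to 0.09 without an array). In U266 it was 0.17 with each median scaling and −0.01 without a filter (−0.09 to 0.02). In 8226R5 it was 0.11 with each median scaling, 0.09 with neqc and with probes detected on all 12 arrays, 0.07 without a filter and 0.10 with the mean of all probes (0.08 to 0.13). The 2 median scalings shift all genes of an array alike, so their equal values are not separate checks. The replicate block gave 15 cytosolic and 14 mitochondrial calls in MM.1S, 4 and 2 in U266 and 0 and 0 in 8226R5. XPOT in 8226R5 lost the threshold without a filter (adjusted p = 0.0834). Dimness limits treated MM.1S, where LARS2 and XPOT have only a bound and PARS2 has none.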
